A study of Mus musculus with 15 samples.

Results

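The genes described here are 9 members of neuropeptide systems: the galanin receptor Galr1 and the galanin precursor Gal, the thyrotropin-releasing hormone (TRH) receptor Trhr, the corticotropin-releasing hormone (CRH) receptor Crhr1, the neuropeptide Y receptors Npy1r and Npy5r, the somatostatin receptors Sstr2 and Sstr3, and the nociceptin receptor Oprl1. They are 9 of 24420 gene symbols in a table of RNA sequencing counts from mouse cerebellum. All 9 had enough counts to be among the 16808 genes tested. The genes were chosen from measured values, namely their counts in these libraries and their differences between the groups, so the values below describe them and no p is given for any of them.

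There were 3 groups of 5 libraries. The WT group is labelled wild type, strain FVB/nJ, and was 9 weeks old. The 82Q group is labelled Atxn1[82Q], also FVB/nJ and 9 weeks old. The 82Q_M120A group is labelled Atxn1[82Q],CalphaLoxM120A, on a strain background that mixes FVB/nJ with C57BL/6J, and was 8 weeks old. Atxn1 encodes ataxin-1, whose expanded glutamine tract causes spinocerebellar ataxia type 1, and the second allele alters the catalytic subunit of protein kinase A encoded by Prkaca. The series' own text calls the Atxn1[82Q] mice knock-in, and the labels name no promoter or Cre. No group carried the kinase allele without Atxn1[82Q]. In every comparison with 82Q_M120A the kinase allele, the strain mix and the age therefore cannot be told apart. Against WT, the 82Q_M120A group differs by Atxn1[82Q] as well. Samples within a group are labelled as replicates, and whether each is a separate animal is not said. The p-values measure only the spread between these samples, part of which may be technical. Libraries with high and with low Xist, an RNA made in females, were present in every group, so each group holds more than 1 animal.

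Neuropeptides are cut from larger precursors, stored in dense-core vesicles and released to act on G protein-coupled receptors, often at some distance from the release site. The receptors for galanin, neuropeptide Y, somatostatin and nociceptin couple mainly to inhibitory G proteins, which lower cyclic AMP and open inwardly rectifying potassium (GIRK) channels. The CRH receptor couples mainly to the stimulatory G protein that raises cyclic AMP, the activator of protein kinase A. The TRH receptor couples mainly to Gq and phospholipase C. In the cerebellum CRH is known as a peptide of the climbing fibres, which contact Purkinje cells, the neurons that carry the output of the cortex.

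Levels are given as counts per mega counts (CPM) after scaling with trimmed mean of M-values (TMM) factors, as mean ± SD with n = 5. Differences are log2 fold changes ± an approximate standard error. A gene is called when its Benjamini-Hochberg adjusted p in edgeR's quasi-likelihood test over all tested genes is under 0.05. The libraries held 38322749 counts (WT-5) to 99422994 counts (82Q_M120A-1). Atxn1 lay at 46.4 to 62.2 CPM in WT, 54.1 to 58.6 CPM in 82Q and 50.6 to 55.8 CPM in 82Q_M120A. Prkaca lay at 164 to 173, 158 to 173 and 138 to 150 CPM. Counts per gene do not read the repeat or the altered residue, so neither gene checks the labels.

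Several lists of cell type markers also differed between groups, most of them between WT and the other groups. The summed level of 11 Purkinje cell markers was 9757 to 11095 CPM in WT, 3473 to 4338 CPM in 82Q and 3519 to 4885 CPM in 82Q_M120A. Of these 11 genes, 10 were called lower in each of the other groups than in WT, and 3 were called higher in 82Q_M120A than in 82Q. The 7 microglial markers summed to 77 to 86.3, 125 to 135 and 117 to 140 CPM, and the 6 oligodendrocyte markers to 4625 to 5604, 5723 to 6967 and 6415 to 7024 CPM. All 7 microglial markers were called higher in 82Q than in WT. In 82Q_M120A, 5 were called higher and 1 lower against WT, and 1 higher and 2 lower against 82Q. Tmem119 lay at 5.82 to 6.41 CPM in 82Q_M120A, below the WT range of 6.9 to 7.75 CPM. The 82Q_M120A libraries lay above both other groups in the summed level of 3 markers of unipolar brush cells. This sum was 280 to 318 CPM in WT, 259 to 297 CPM in 82Q and 339 to 415 CPM in 82Q_M120A. Against each group 1 of the 3 was called higher and 1 lower. Most of the sum was Calb2, at 251 to 289 CPM in WT, 234 to 271 in 82Q and 316 to 394 in 82Q_M120A. Eomes went the other way, at 22.9 to 36.3, 20.7 to 30.9 and 14 to 20.8 CPM. The ranges of Lmx1a overlapped, so the sum does not describe the 3 markers as a set. The 82Q_M120A libraries also lay above both other groups in the summed level of the 5 vascular markers. That sum was 155 to 172, 151 to 168 and 193 to 227 CPM, and 2 of the 5 were called higher against each group. Slco1a4 was at 38.1 to 48.4, 42.5 to 48.3 and 67.1 to 78.5 CPM. Rgs5 was at 22.6 to 26.6, 24.7 to 26.1 and 31.8 to 43.8 CPM. The ranges of Cldn5, Pecam1 and Flt1 overlapped, so this sum does not describe the 5 markers as a set either. Markers of brainstem and locus coeruleus, a known site of galanin neurons, summed to only 1.08 to 2.33 CPM over the 15 libraries. The 5 choroid plexus markers varied within every group, from 26.3 to 2571 CPM in WT, 29.5 to 2763 CPM in 82Q and 12.1 to 2030 CPM in 82Q_M120A. Xist, the RNA of the inactive X chromosome, was high in 4 WT, 2 82Q and 3 82Q_M120A libraries and at most 2.56 CPM in the others, where the Y-linked gene Ddx3y was at 97.1 CPM or more. Sex is not given in the labels used here. How far cell composition or sex contributes to the values of the 9 genes was not tested. In bulk tissue fewer cells of a type and less RNA per cell cannot be told apart.

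The galanin receptor Galr1 (ENSMUSG00000024553.8, chr18:82392380-82406777 on the minus strand of GRCm38, 3 exons) was the member with the highest fold difference between 82Q and WT. Its level was 2.6, 2.43, 2.67, 2.75 and 1.6 CPM in WT-1 to WT-5 and 8.91, 8.12, 8.85, 10.4 and 11.7 CPM in 82Q-1 to 82Q-5. In 82Q_M120A-1 to 82Q_M120A-5 it was 4.73, 4.99, 5.71, 4.06 and 2.17 CPM. Every 82Q library lay above every library of the other groups. All 82Q_M120A libraries but the fifth, at 2.17 CPM, lay above the WT range, and that library and WT-5 were the lowest of their groups.

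The mean level of Galr1 was 2.41 ± 0.466 CPM in WT, 9.6 ± 1.45 CPM in 82Q and 4.33 ± 1.35 CPM in 82Q_M120A. It was 3.93-fold higher in 82Q than in WT (log2 fold change 1.97 ± 0.21). In 82Q_M120A it was 1.78-fold higher than in WT (0.83 ± 0.21) and 2.21-fold lower than in 82Q (-1.15 ± 0.20). The summed counts behind these levels were 852, 3920 and 1911. Leaving out any single library gave 1.88 to 2.03, 0.71 to 1.0 and -1.27 to -0.98, with all 3 differences still called. In the libraries with high Xist only, the difference between 82Q_M120A and WT was 0.69 ± 0.282 and was no longer called. Galr1 in those libraries lay at 2.43 to 2.75 CPM in WT, 8.91 to 11.7 CPM in 82Q and 2.17 to 5.71 CPM in 82Q_M120A. The plot of levels by library shows the gap between 82Q and the other groups.

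**Figure D1:**
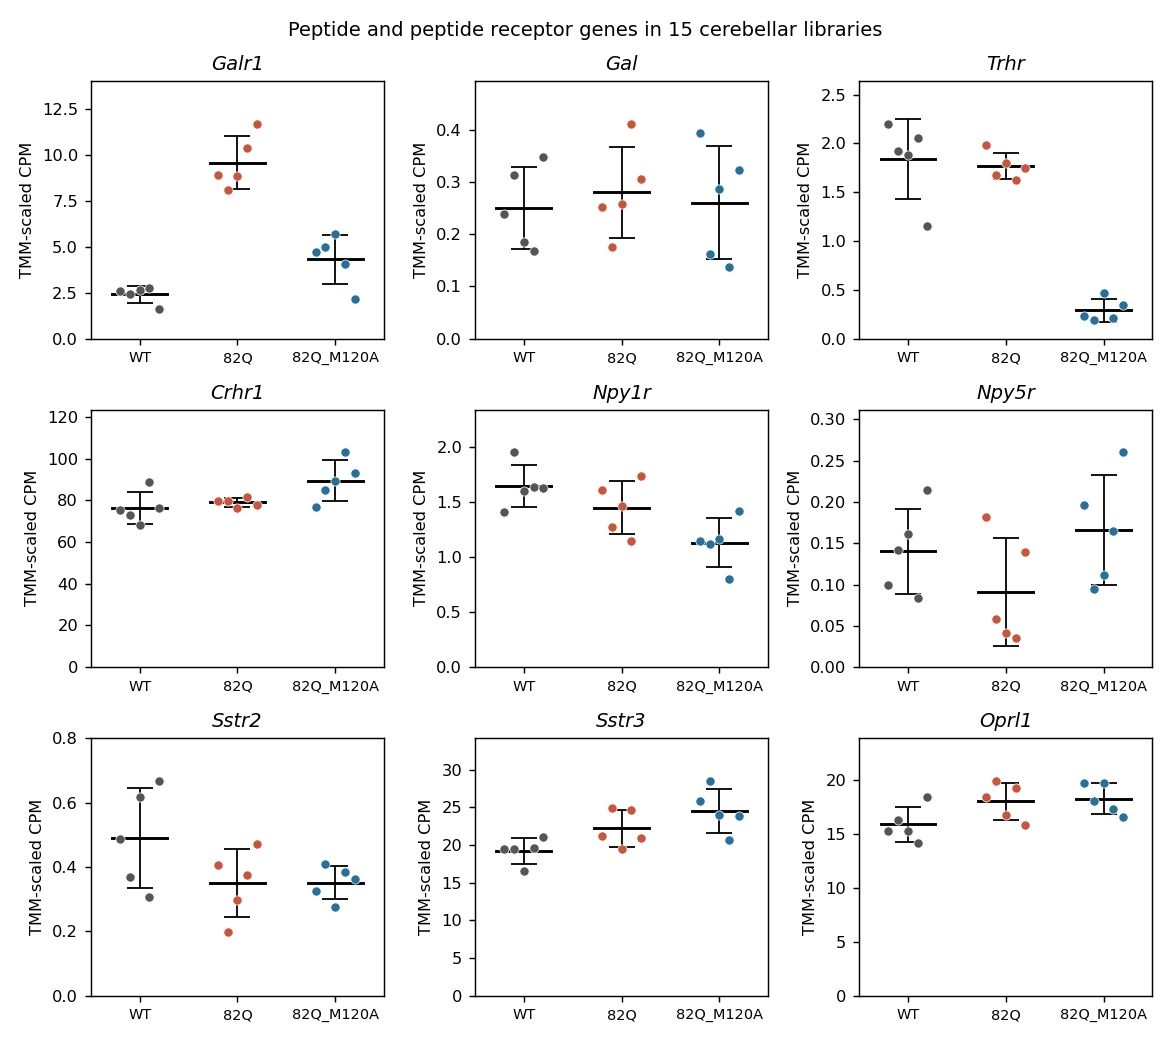
Levels of the 9 genes in each library (points, TMM-scaled CPM on a linear axis from 0, a separate scale for each gene) by group, with the mean (thick bar) and SD (whiskers) of 5 libraries. The 5 82Q libraries of Galr1 (8.12 to 11.7 CPM) lie above all others, and the 5 82Q_M120A libraries of Trhr (0.19 to 0.47 CPM) lie below all others.

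Gal (ENSMUSG00000024907.7, chr19:3409915-3414544, minus strand), which encodes the galanin precursor, was low in every library and did not share the pattern of Galr1. Its counts were 19, 22, 15, 12 and 13 in WT, 18, 15, 25, 35 and 22 in 82Q, and 40, 12, 28, 10 and 31 in 82Q_M120A. These correspond to 0.25 ± 0.0785, 0.28 ± 0.0867 and 0.261 ± 0.108 CPM, and the 3 ranges overlapped. The ratio of the summed counts, scaled for depth, was 1.17 between 82Q and WT, with an exact 95% interval of 0.876 to 1.58 that covers counting error only. It was 1.15 (0.861 to 1.54) between 82Q_M120A and WT and 0.98 (0.753 to 1.28) between 82Q_M120A and 82Q. The same ratio for Galr1, a gene chosen with its group differences known, was 3.81 (3.53 to 4.1, counting error only) in 82Q against WT.

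Per kilobase of exon, Galr1 stood at 0.807 CPM and Gal at 0.317 CPM in WT. In 82Q the levels per kilobase were 3.21 and 0.356 CPM, and in 82Q_M120A 1.45 and 0.331 CPM. Galr2, the galanin receptor that couples mainly to Gq, had a different order of groups from Galr1. Galr2 was at 2.29 ± 0.257 CPM in WT, 2.22 ± 0.218 CPM in 82Q and 1.01 ± 0.254 CPM in 82Q_M120A. It fell in 82Q_M120A against WT (-1.18 ± 0.15, edgeR adjusted p = 5.64e-06) and against 82Q (-1.13 ± 0.15, edgeR adjusted p = 2.89e-05), with all 5 libraries below both other ranges. Galr3 had 16, 12 and 15 counts in all over the WT, 82Q and 82Q_M120A libraries and was not tested. Spx encodes spexin, a further ligand of galanin receptors, and was at 3.56 ± 0.309, 2.27 ± 0.265 and 2.82 ± 0.351 CPM. Spx fell in 82Q against WT (-0.64 ± 0.10, edgeR adjusted p = 0.000172) and in 82Q_M120A against WT (-0.33 ± 0.10, edgeR adjusted p = 0.0159). Galp, the precursor of galanin-like peptide, had 2, 9 and 7 counts in all.

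The TRH receptor Trhr (ENSMUSG00000038760.14, chr15:44196135-44235912, plus strand) was low in 82Q_M120A and at overlapping levels in the other groups. Its level was 2.2, 1.92, 1.88, 2.06 and 1.15 CPM in WT-1 to WT-5 and 1.98, 1.68, 1.8, 1.63 and 1.75 CPM in 82Q-1 to 82Q-5. In 82Q_M120A-1 to 82Q_M120A-5 it was 0.236, 0.19, 0.47, 0.207 and 0.344 CPM. All 82Q_M120A libraries lay below all others, and WT-5 was the lowest library outside that group. The counts were 24, 14, 46, 15 and 33 in 82Q_M120A, against 43 to 176 in WT and 126 to 175 in 82Q.

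The mean level of Trhr was 1.84 ± 0.408 CPM in WT, 1.77 ± 0.132 CPM in 82Q and 0.289 ± 0.117 CPM in 82Q_M120A. It was 6.3-fold lower in 82Q_M120A than in WT (log2 fold change -2.66 ± 0.21) and 5.98-fold lower than in 82Q (-2.58 ± 0.21). Between 82Q and WT the difference was -0.08 ± 0.18. From the summed counts of 654, 725 and 132, the depth-scaled ratio of 82Q_M120A to WT was 0.155 (exact 95% interval 0.128 to 0.188, counting error only). Leaving out any single library moved the 82Q_M120A differences to between -2.90 and -2.55 against WT and between -2.83 and -2.47 against 82Q. The separation was also present within both Xist classes: 0.236 to 0.47 CPM against 1.88 to 2.2 in WT and 1.75 to 1.98 in 82Q among libraries with high Xist, and 0.19 to 0.207 against 1.15 and 1.63 to 1.8 among those with low Xist.

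The hormone that Trhr binds was itself almost absent from these counts. Trh, the TRH precursor, had 5, 14 and 7 counts in all over the WT, 82Q and 82Q_M120A libraries, and the second receptor gene Trhr2 had 6, 9 and 9. Both were below the filter and not tested. Trhde, the ectoenzyme that degrades TRH, was abundant, at 60.1 ± 3.28 CPM in WT, 69.2 ± 5.81 CPM in 82Q and 65.6 ± 0.983 CPM in 82Q_M120A. Trhde rose in 82Q against WT (0.20 ± 0.05, edgeR adjusted p = 0.00675), and in 82Q_M120A against WT the difference was 0.13 ± 0.05 (edgeR adjusted p = 0.0529).

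The CRH receptor Crhr1 (ENSMUSG00000018634.10, chr11:104132855-104175523, plus strand) was the most abundant of the 9 genes and differed little between groups. Its level was 75.3, 72.8, 68.4, 89 and 76.5 CPM in WT-1 to WT-5 and 79.8, 79.6, 76.3, 81.8 and 77.9 CPM in 82Q-1 to 82Q-5. In 82Q_M120A-1 to 82Q_M120A-5 it was 76.8, 84.8, 89.1, 103 and 93.3 CPM. The 82Q range lay inside the WT range, and 3 of 5 82Q_M120A libraries were above all WT libraries. The means were 76.4 ± 7.7, 79.1 ± 2.1 and 89.5 ± 9.85 CPM. The log2 fold change was 0.05 ± 0.07 in 82Q against WT, 0.23 ± 0.07 in 82Q_M120A relative to WT, where the gene was called higher, and 0.18 ± 0.07 in 82Q_M120A against 82Q. The call against WT was lost without 82Q_M120A-4 (0.17) or WT-3 (0.19), in the libraries with high Xist only (0.18), with the choroid plexus score as a covariate (0.11) and in a fit of only the groups compared (0.23 ± 0.0825). Without 82Q_M120A-1 (0.23) or WT-4 (0.17) the difference between 82Q_M120A and 82Q was called.

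Among ligands of the CRH receptors, Crh and Ucn were near the counting floor. Crh had 35, 21 and 18 counts in all over the WT, 82Q and 82Q_M120A libraries, and Ucn, which encodes urocortin, had 10, 8 and 10. Ucn2, the precursor of a urocortin selective for the receptor encoded by Crhr2, was at 0.899 ± 0.162, 0.87 ± 0.139 and 0.279 ± 0.12 CPM. It fell in 82Q_M120A against WT (-1.68 ± 0.23, edgeR adjusted p = 1.47e-05) and against 82Q (-1.63 ± 0.22, edgeR adjusted p = 5.78e-05). The gene Crhr2, chosen for mention after its values were seen, was at 1.44 ± 0.828, 0.858 ± 0.948 and 0.336 ± 0.685 CPM and was called in no comparison; its SD was close to or above its mean in 82Q and 82Q_M120A.

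The neuropeptide Y receptor genes Npy1r (ENSMUSG00000036437.6, chr8:66697192-66706792, plus strand) and Npy5r (ENSMUSG00000044014.9, chr8:66679965-66688128, minus strand) are neighbours that run in opposite directions, with annotated starts 9064 bases apart. Both lie 17.3 megabases from Prkaca. Npy1r was at 1.41, 1.95, 1.6, 1.64 and 1.63 CPM in WT-1 to WT-5 and 1.61, 1.27, 1.46, 1.15 and 1.74 CPM in 82Q-1 to 82Q-5. In 82Q_M120A-1 to 82Q_M120A-5 it was 1.15, 1.12, 1.16, 0.799 and 1.42 CPM. In 82Q_M120A, 4 of 5 libraries lay below every WT library, and the 82Q range overlapped both. The means were 1.65 ± 0.193, 1.45 ± 0.239 and 1.13 ± 0.22 CPM, and Npy1r was called lower in 82Q_M120A against WT (-0.54 ± 0.15). The other differences were -0.19 ± 0.15 in 82Q against WT and -0.35 ± 0.15 in 82Q_M120A against 82Q. In the libraries with high Xist only, the difference between 82Q_M120A and WT was -0.41 and was not called. With the Xist class as a covariate the difference between 82Q_M120A and 82Q was -0.41 and was called.

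Npy5r had the fewest counts of the 9 genes. The counts were 8, 10, 13, 6 and 8 in WT, 13, 5, 4, 3 and 10 in 82Q, and 20, 7, 11, 12 and 25 in 82Q_M120A. The groups overlapped, with the lowest libraries in 82Q and the highest in 82Q_M120A. The depth-scaled ratio of the summed counts was 0.643 (exact 95% interval 0.401 to 1.02) for 82Q to WT, 1.28 (0.875 to 1.9) for 82Q_M120A to WT and 2 (1.32 to 3.07) for 82Q_M120A to 82Q, counting error only. The gene was called in no comparison, and the fitted difference of 82Q_M120A from 82Q was 0.94 ± 0.42. Without 82Q-1, the 82Q library with 13 counts, that difference was 1.34 ± 0.424 and was called. In the libraries with high Xist only it was 0.24. The neighbouring genes Npy1r and Npy5r had estimates of opposite sign in both comparisons with 82Q_M120A. In 82Q against WT both estimates were negative (-0.19 ± 0.15 and -0.62 ± 0.45). With all libraries the Npy5r differences were not called, and its estimate in 82Q_M120A against WT was 0.32 ± 0.40.

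Npy, the precursor of the peptide that both receptors bind, was at 6.49 ± 0.496 CPM in WT, 3.53 ± 0.396 CPM in 82Q and 4.41 ± 1.52 CPM in 82Q_M120A. Npy fell in 82Q against WT (-0.88 ± 0.18, edgeR adjusted p = 0.0029), and all 82Q libraries (3.01 to 3.96 CPM) were below all WT libraries (5.93 to 7.15 CPM). In 82Q_M120A, where the range was 2.68 to 6.36 CPM, it also fell against WT (-0.56 ± 0.18, edgeR adjusted p = 0.0248). That call was lost without 82Q_M120A-5 (-0.46, edgeR adjusted p = 0.056) or WT-4 (-0.53, edgeR adjusted p = 0.0528), and over all alternatives the adjusted p ran from 0.00218 to 0.0928. Npy2r, chosen for mention after its values were seen, was at 0.341 ± 0.04, 0.452 ± 0.0824 and 0.395 ± 0.106 CPM and was called in no comparison. The precursors Pyy and Ppy had 0 counts in every library.

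The somatostatin receptor Sstr3 (ENSMUSG00000044933.3, chr15:78537008-78544685, minus strand), known as a receptor of neuronal primary cilia, was at 19.4, 19.4, 16.5, 19.6 and 21.1 CPM in WT-1 to WT-5. It was at 21.2, 24.9, 19.4, 24.6 and 20.9 CPM in 82Q-1 to 82Q-5, and it was at 25.8, 28.5, 24, 20.6 and 23.8 CPM in 82Q_M120A-1 to 82Q_M120A-5. In 82Q_M120A, 4 of 5 libraries lay above every WT library, and in 82Q 3 of 5 did. The means were 19.2 ± 1.66, 22.2 ± 2.41 and 24.5 ± 2.89 CPM. Sstr3 was called higher in 82Q_M120A against WT (0.35 ± 0.09), and this call held in all 25 alternatives, the fit of the libraries with high Xist only included. The differences in 82Q against WT (0.21 ± 0.09) and in 82Q_M120A against 82Q (0.14 ± 0.09) were not called, although the former was called when libraries were scaled by size only (0.26).

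Sstr2 (ENSMUSG00000047904.6, chr11:113619342-113626028, plus strand) was low. Its counts were 39, 26, 50, 22 and 25 in WT, 29, 17, 29, 32 and 34 in 82Q, and 33, 30, 27, 28 and 35 in 82Q_M120A. These correspond to 0.49 ± 0.155, 0.35 ± 0.105 and 0.352 ± 0.0525 CPM, and the ranges overlapped, with the highest libraries in WT. No difference was called: the log2 fold change was -0.47 ± 0.24 in 82Q against WT, -0.46 ± 0.24 in 82Q_M120A relative to WT and 0.01 ± 0.24 between the other groups. Sstr2 overlaps Slc39a11 on the opposite strand (10.1 CPM). Their exons do not overlap, and the library kit is not stated to keep strand. Of the other somatostatin receptors, Sstr1 was at 2.38 ± 0.36, 2.56 ± 0.392 and 2.62 ± 0.465 CPM and was not called. Sstr4 was at 0.595 ± 0.109, 0.416 ± 0.085 and 0.34 ± 0.11 CPM and fell in 82Q_M120A against WT (-0.83 ± 0.22, edgeR adjusted p = 0.00587). Sst, the somatostatin precursor, chosen for mention after its values were seen, was at 1.69 ± 0.766, 1.75 ± 0.432 and 1.68 ± 0.139 CPM.

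Since protein kinase A acts on transcription through factors that bind cAMP response elements, the promoters were searched for such elements. RefSeq promoter windows on GRCm38.p6, from 250 bases before to 50 bases after the start, were used for 7 of the 9 genes, with 10 windows in all. Galr1 and Trhr were not searched. The full palindromic element TGACGTCA was found in 1 window, that of Sstr2, against 1.79% of all 32851 promoters of the same length. Its core TGACG, searched on both strands, was found in 3 windows (Sstr2, Sstr3 and Gal), against 20.8% of all promoters. In Sstr2 the core matches are part of the full element. The octamer TGAATGAA, bound by the ataxin-1 partner capicua (CIC) and searched on both strands, was in 0 of the windows, against 1.3% of all promoters. The 250 bases upstream of the RefSeq start of Sstr2 (chr11:113619077-113619326, plus strand, GRCm38.p6) are shown because they hold the full element, in capitals, whose first base lies 58 bases before the start.
Sstr2 upstream: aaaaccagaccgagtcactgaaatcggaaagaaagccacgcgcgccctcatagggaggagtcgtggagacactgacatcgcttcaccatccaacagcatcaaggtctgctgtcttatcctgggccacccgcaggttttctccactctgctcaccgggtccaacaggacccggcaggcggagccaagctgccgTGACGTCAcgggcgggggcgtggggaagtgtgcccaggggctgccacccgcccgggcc
A match is a run of letters and not a shown binding site, and whether this element bears on the level of Sstr2 was not tested.

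The nociceptin receptor Oprl1 (ENSMUSG00000027584.16, chr2:181715016-181720985, plus strand) was at 15.3, 16.3, 15.3, 14.1 and 18.4 CPM in WT-1 to WT-5. It was at 18.4, 19.9, 16.7, 19.2 and 15.8 CPM in 82Q-1 to 82Q-5, and it was at 19.7, 18, 19.7, 17.3 and 16.6 CPM in 82Q_M120A-1 to 82Q_M120A-5. The 3 ranges overlapped, and WT-5 was the WT library that reached into the range of the others most. The means were 15.9 ± 1.61, 18 ± 1.7 and 18.3 ± 1.4 CPM. Oprl1 was called higher in 82Q_M120A against WT (0.20 ± 0.07), with 2 of 5 libraries above every WT library. Leaving out any of 9 single libraries ended this call, with values of 0.16 to 0.21: 82Q-1, 82Q-4, 82Q_M120A-1, 82Q_M120A-2, 82Q_M120A-3, WT-1, WT-2, WT-3 and WT-4. With the Xist class as a covariate the difference was 0.19 ± 0.0742 and was not called. In 82Q against WT the difference was 0.18 ± 0.08 and was not called, and without WT-5 it was 0.24 ± 0.0718 and was called.

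Pnoc, the precursor of nociceptin, was at 4.25 ± 0.223 CPM in WT, 4.94 ± 0.737 CPM in 82Q and 3.18 ± 0.676 CPM in 82Q_M120A. It fell in 82Q_M120A against WT (-0.41 ± 0.13, edgeR adjusted p = 0.018) and against 82Q (-0.63 ± 0.13, edgeR adjusted p = 0.00197). Oprk1, the kappa opioid receptor, was at 1.18 ± 0.232, 1.21 ± 0.121 and 0.749 ± 0.145 CPM. It fell in 82Q_M120A against WT (-0.64 ± 0.15, edgeR adjusted p = 0.00367) and against 82Q (-0.69 ± 0.15, edgeR adjusted p = 0.00401).

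Counted over the 9 genes, 1 was called in 82Q against WT (Galr1, higher), 6 in 82Q_M120A against WT (Crhr1, Galr1, Oprl1 and Sstr3 higher, Npy1r and Trhr lower) and 2 in 82Q_M120A against 82Q (Galr1 and Trhr, both lower). Over all tested genes, 18.7%, 36.4% and 18.9% were called in these comparisons. By direction, 8.63% were called higher and 10.1% lower in 82Q than in WT. In 82Q_M120A, 18.6% were called higher and 17.8% lower than in WT, and 10.3% higher and 8.63% lower than in 82Q. The groups did not overlap for 1 gene (Galr1), 1 gene (Trhr) and 2 genes (both), against 16.6%, 25.3% and 12.1% of all tested genes. The median log2 fold change of the 9 genes was 0.05, 0.20 and 0.01, beside 0.01, 0.01 and 0.00 over all tested genes. Because these contrasts chose the genes, the counts are a description, and the comparisons share control samples.

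**Figure D2:**
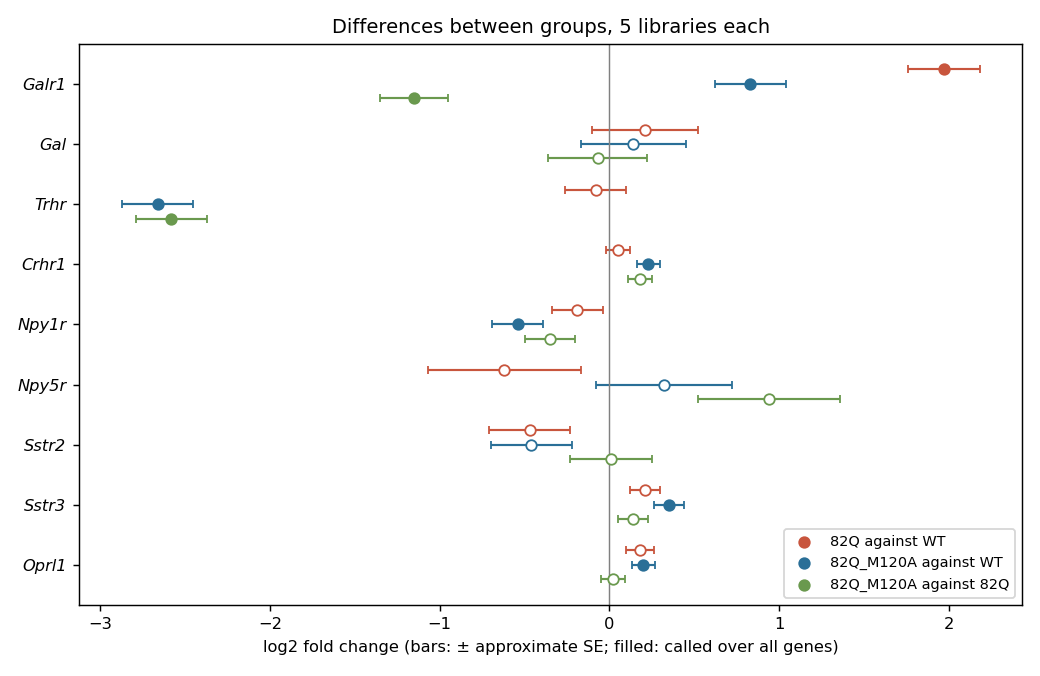
Log2 fold changes of the 9 genes (x axis) in the 3 comparisons (colours), with whiskers of ± 1 approximate standard error and filled points for genes called over all tested genes. Galr1 is the gene with filled points in all 3 comparisons, at 1.97, 0.83 and -1.15, and Trhr lies at -2.66 and -2.58 in both comparisons with 82Q_M120A.

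Levels per kilobase of exon set the order of abundance between genes. Crhr1 was first in every group, at 31.1 CPM per kilobase in WT, 32.1 in 82Q and 36.4 in 82Q_M120A, clear of all others. Sstr3 (4.45, 5.14 and 5.68) and Oprl1 (4.24, 4.8 and 4.87) followed, and their ranges overlapped in every group. Galr1 was in place 4 throughout. In WT its range (0.537 to 0.919) overlapped that of Npy1r in place 5 (0.409 to 0.564), while in 82Q (2.72 to 3.93) and in 82Q_M120A (0.725 to 1.91) it was clear of both neighbours. Trhr was in place 6 in WT (0.461) and place 5 in 82Q (0.442), where its range overlapped that of Npy1r. In 82Q_M120A it was in place 8 (0.0723), where its range overlapped that of Npy5r in place 9 (0.0649). Gal and Sstr2 lay between these, and Npy5r was last in every group.

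**Figure D3:**
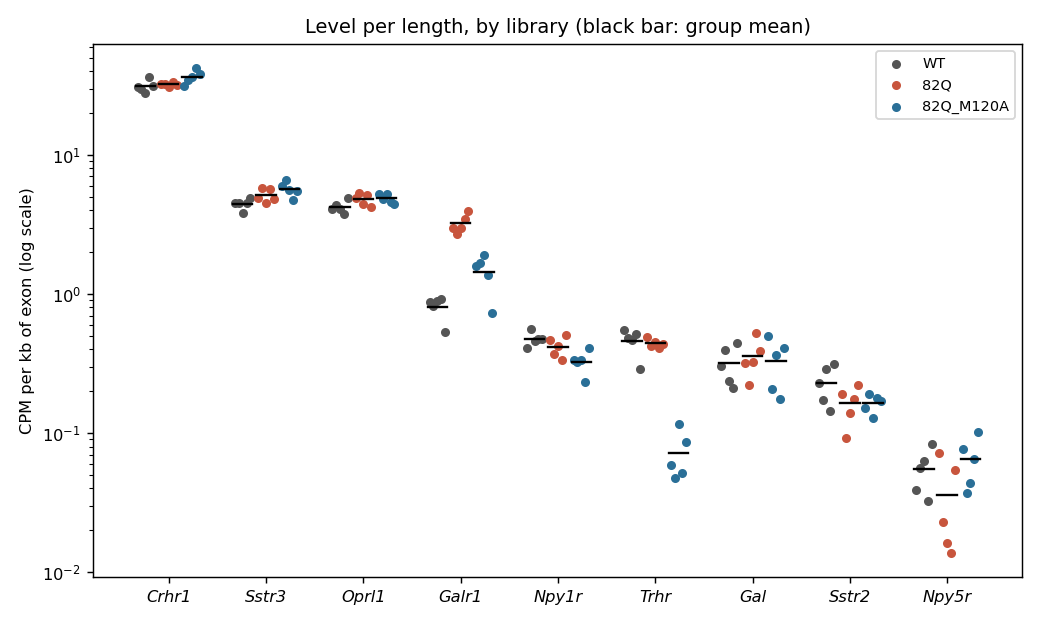
Level of each gene per kilobase of exon (y axis, TMM-scaled CPM per kilobase, log scale) in each library (points, coloured by group), with the group mean as a bar and genes ordered by their WT mean. Crhr1 lies above all other genes at 27.8 to 42 CPM per kilobase, Galr1 is spread from 0.537 to 3.93, and the 82Q_M120A libraries of Trhr lie at 0.0476 to 0.117, beside Npy5r.

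Across the 15 libraries, the tested genes most like Galr1 by Pearson correlation of log2 CPM were Capn3 (r = 0.96), a calcium-dependent protease, Ryr3 (r = 0.94), a calcium release channel of the endoplasmic reticulum, and BC030499 (r = 0.93). These r values include the differences between the group means. The r of deviations from the group means was 0.75, 0.73 and 0.83. Ryr3 was at 51.2 ± 3.6 CPM in WT, 85.4 ± 9.82 CPM in 82Q and 67.3 ± 10.5 CPM in 82Q_M120A, and Capn3 at 2.33 ± 0.165, 3.43 ± 0.132 and 2.71 ± 0.291 CPM. Both genes have the group order of Galr1 with smaller differences, of 0.74 ± 0.10 and 0.56 ± 0.08 on the log2 scale in 82Q against WT. The genes most like Trhr were Tcp11l1 (r = 0.97), Pla2g4e (r = 0.97), a phospholipase A2 of the cytosolic family, and Fem1b (r = 0.96), a substrate receptor of a ubiquitin ligase, with r of deviations of 0.50, 0.30 and 0.78. Pla2g4e was at 60.4 ± 5.05, 57.8 ± 4.6 and 11.2 ± 2.12 CPM, a log2 fold change of -2.43 ± 0.11 in 82Q_M120A against WT, close to that of Trhr. Tcp11l1 and Fem1b differed by -0.74 ± 0.05 and -0.15 ± 0.03 in the same comparison. Capn3, Ryr3, Tcp11l1 and Pla2g4e all lie on chromosome 2, while BC030499 lies on chromosome 11 and Fem1b on chromosome 9. Whether the strain mix of 82Q_M120A has a part in these likenesses was not tested. Genes were ranked by shape only, over 15 libraries that differ in group, strain, depth and composition.

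The 9 genes were set beside 149 other peptide-signalling genes in 7 lists, of which 104 were tested and 45 were not. In 82Q against WT 8 of the 104 rose and 12 fell, in 82Q_M120A against WT 16 rose and 24 fell, and in 82Q_M120A against 82Q 9 rose and 19 fell. The shares called were 19.2%, 38.5% and 26.9%, beside the 18.7%, 36.4% and 18.9% over all tested genes, and the medians were 0.03, -0.04 and -0.03. Among other receptors of the same families, edgeR called 0 of 9 tested genes in 82Q against WT, as did DESeq2 and limma-voom (0 each). Of these 9, 2 had an unadjusted p under 0.05, Sstr4 and Oprd1 (the latter named after its values were seen). In 82Q_M120A 3 of the 9 fell against WT (Galr2, Oprk1 and Sstr4), none rose, and 2 fell against 82Q (Galr2 and Oprk1). Kiss1r, the kisspeptin receptor, at 7.55 ± 0.657, 6.81 ± 0.536 and 7.35 ± 0.59 CPM, was among those not called. Of the 9 tested ligand precursors, 2 fell in 82Q against WT (Npy and Spx), 4 fell in 82Q_M120A against WT (Ucn2, Spx, Pnoc and Npy), and in 82Q_M120A against 82Q 1 rose (Spx) and 2 fell (Ucn2 and Pnoc). The rise of Spx against 82Q (0.31 ± 0.10, edgeR adjusted p = 0.0408) was lost without any of 8 single libraries (82Q-3, 82Q-4, 82Q-5, 82Q_M120A-1, 82Q_M120A-2, WT-1, WT-2 and WT-3), and its adjusted p over all alternatives ran from 0.0212 to 0.184.

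Among 28 tested receptors for other peptides, 4 rose and 0 fell in 82Q against WT, 7 rose and 4 fell in 82Q_M120A relative to WT, and 1 rose and 5 fell in 82Q_M120A against 82Q. Ntsr2, a neurotensin receptor, rose in 82Q from 101 ± 6 to 119 ± 6.58 CPM (0.23 ± 0.05, edgeR adjusted p = 0.00138) and was at 103 ± 4.68 CPM in 82Q_M120A. Both receptors for vasoactive intestinal peptide fell in 82Q_M120A against 82Q: Vipr1 from 10.9 ± 1.15 to 6.2 ± 1.87 CPM (-0.82 ± 0.17, edgeR adjusted p = 0.00322) and Vipr2 from 28.7 ± 2.31 to 19.8 ± 2.95 CPM (-0.53 ± 0.09, edgeR adjusted p = 0.000343). Of 12 other precursors tested, 2 rose in 82Q against WT, and in 82Q_M120A 4 rose and 2 fell against WT, and 1 rose and 2 fell against 82Q. Agt, the angiotensin precursor, made in the brain mainly by astrocytes, rose from 73.8 ± 5.4 to 133 ± 15.4 CPM in 82Q (0.85 ± 0.10, edgeR adjusted p = 2.86e-05) and was at 120 ± 17.3 CPM in 82Q_M120A. Adcyap1, the PACAP precursor, was at 0.824 ± 0.291, 0.969 ± 0.228 and 4.65 ± 2.89 CPM and rose in 82Q_M120A against WT (2.53 ± 0.50, edgeR adjusted p = 0.00145). Its 82Q_M120A libraries ran from 0.612 to 8.76 CPM and so overlapped the WT range of 0.432 to 1.12.

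Of 15 genes of peptide processing and release, 1 rose and 2 fell in 82Q against WT, and in 82Q_M120A 2 rose and 2 fell against WT and 2 rose and 5 fell against 82Q. Pcsk1, a convertase that cuts precursors, fell in 82Q (14.7 ± 1.22 to 9.69 ± 1.1 CPM, -0.60 ± 0.09, edgeR adjusted p = 0.000151) and rose in 82Q_M120A (13.9 ± 1.85 CPM, 0.52 ± 0.09 against 82Q, edgeR adjusted p = 0.000729). Scg5, the 7B2 chaperone of the convertase encoded by Pcsk2, was at 441 ± 16.1, 418 ± 9.54 and 145 ± 12.9 CPM and fell in 82Q_M120A against WT (-1.60 ± 0.05, edgeR adjusted p = 3.78e-13). Among 10 tested genes of peptide binding and breakdown, 1 rose (Trhde) and 1 fell (Ece1) in 82Q against WT, 1 rose and 3 fell in 82Q_M120A relative to WT, and 1 rose and 1 fell against 82Q. Of the 21 G protein, GIRK channel and arrestin genes, 0 rose and 7 fell in 82Q against WT, 2 rose and 6 fell in 82Q_M120A relative to WT, and 3 rose and 2 fell against 82Q. Gnao1, the abundant neuronal inhibitory G protein, fell from 559 ± 11.1 to 432 ± 14.7 CPM in 82Q (-0.37 ± 0.04, edgeR adjusted p = 5.01e-07) and was at 452 ± 20 CPM in 82Q_M120A. Gnai1 (256 ± 6.57, 201 ± 10.4 and 211 ± 7.3 CPM) and the GIRK subunit Kcnj9 (217 ± 7.78, 178 ± 8.35 and 169 ± 10.3 CPM) had the same order of WT above both other groups. The Purkinje cell markers lay in that order too, at 9757 to 11095, 3473 to 4338 and 3519 to 4885 CPM summed, and their part in these falls was not tested. The plot of the 7 lists shows each gene.

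**Figure D4:**
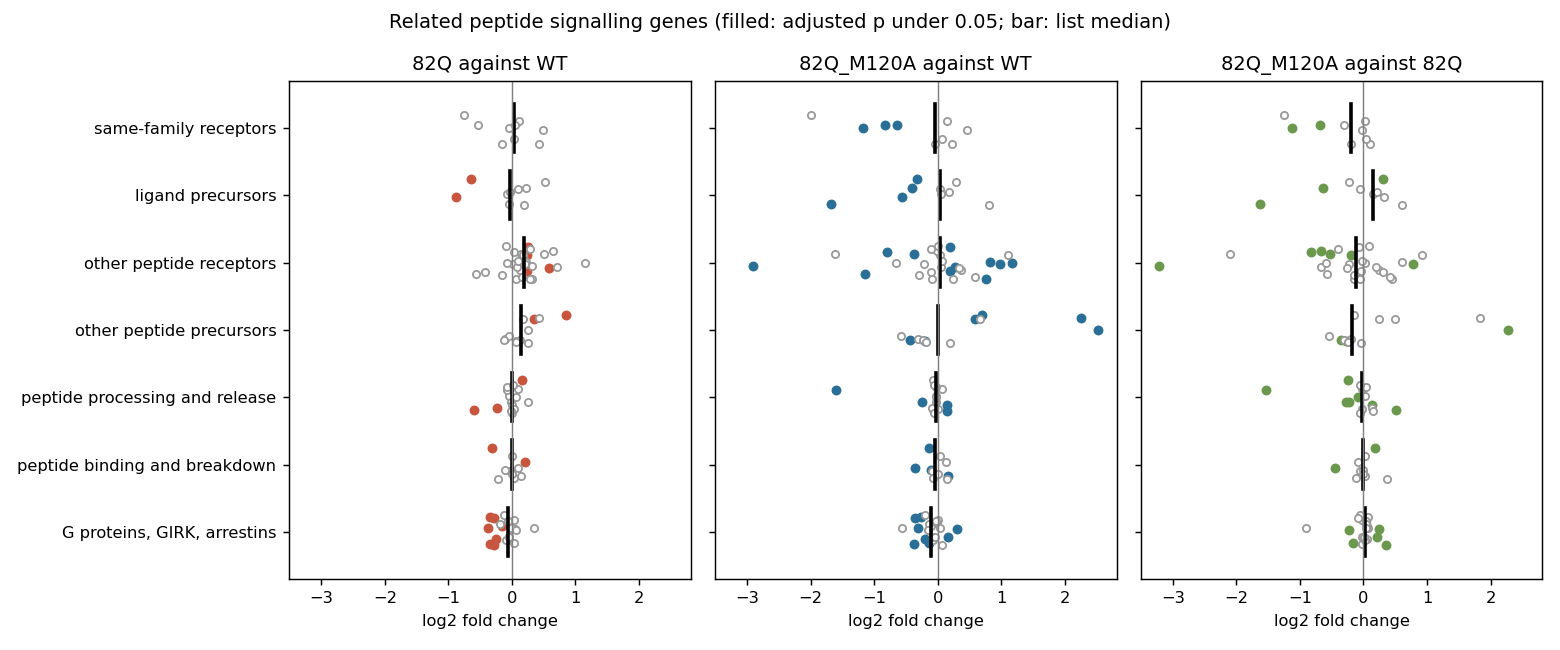
Log2 fold changes (x axis) of the 104 tested peptide-signalling genes in 7 lists (y axis) for the 3 comparisons (panels), filled where the edgeR adjusted p was under 0.05, with a bar at each list's median. The list medians lie between -0.19 and 0.19, while single genes such as Ucn2 (-1.68), Scg5 (-1.60) and Adcyap1 (2.53) in 82Q_M120A against WT lie far from them.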

How the data were processed

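RNA from cerebellum was sequenced in 15 libraries, 5 per group. The deposited table holds whole-number read counts per gene symbol. Per the submitters' processing notes, CASAVA 1.8, HISAT2 2.0.1, featureCounts of Subread, R 3.3.3 and DESeq2 1.14.1 were used with build mm10. Not given in the sources used here were the annotation, the strand setting and the treatment of multi-mapping reads. Column names show only the group, and libraries are numbered by column order within it, and 0 columns were left unused.

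All 15 libraries were fitted together in R 4.3.3 with limma 3.58.1 and edgeR 4.0.16 (TMM factors, filterByExpr, robust quasi-likelihood fit, group as the only factor, two-sided), which left 16808 of 24420 genes. P-values were adjusted by the Benjamini-Hochberg method over all of these. The common biological coefficient of variation was 0.105, and libraries of a group differed by more than counting error (chi-square per degree of freedom 6.84 to 69 over 30 pairs). The approximate standard error is the absolute log2 fold change over the square root of F. The fit was tested on counts simulated with the dispersions estimated from these data, which checks the code and says nothing on these results. Exon lengths and coordinates are from GENCODE M21 on GRCm38, the assembly of mm10, and promoters from RefSeq on GRCm38.p6.

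The members and the lists were chosen with earlier results of these data known. The named genes are the 9 members, up to 4 called genes with the smallest adjusted p per list and comparison (or the 2 most abundant where none was called), and per member with a mean of at least 1 CPM the 3 most correlated genes (log2 CPM, prior count 2). Of these the text prints a part. Alternatives were limma-voom, DESeq2 1.42.0, scaling by library size only or by RLE factors, other filters, only the groups compared and leaving out each library. Those with Xist and with the choroid plexus score (the mean log2 CPM of its markers) were chosen after seeing the data.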

Additional observations from a re-analysis of the deposited data

Results flagged for a closer look

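Within groups of 5 libraries, the level of Galr1 in WT-5 stood apart from the other WT libraries. It was 1.6 CPM, against 2.43 to 2.75 CPM in the other 4, and its gap to the nearest library was 0.726 of the WT range, where Dixon's critical value is 0.71. WT-5 was the shallowest library (38322749 counts) and the 1 WT library with low Xist. Of 27 sets of 5 libraries examined for the 9 genes, 1 stood apart in this way, and chance gives about 1 in 20.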

How the results depend on the processing

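No paired analysis was possible because the columns carry no replicate numbers. Of 666 recomputed log2 fold changes of the 9 genes, 662 moved by less than 1 SD between libraries and 0 of the called ones changed sign. The other 4, all in the fit of only the libraries with high Xist, which has fewer samples, were Npy1r (0.02) and Npy5r (0.39) in 82Q against WT, and Npy5r (0.24) and Sstr2 (-0.45) in 82Q_M120A against 82Q. In that fit 3 of the 9 genes were called in 82Q_M120A against WT (Oprl1, Sstr3 and Trhr) rather than 6, and 15 of the related genes rather than 28 in 82Q_M120A against 82Q. Over all genes it called 1532 rather than 3142 in 82Q against WT and 4767 rather than 6118 in 82Q_M120A against WT. In 82Q_M120A against 82Q it called 1446 rather than 3175. With library size only, 3 of the 9 genes were called in 82Q against WT (Galr1, Oprl1 and Sstr3) rather than 1. Over all genes that setting called 4197 rather than 3142 in this comparison. It drops the TMM factors, which were 0.971 to 0.987 in WT and 1.01 to 1.02 in 82Q. Without them the differences of Sstr3 and Oprl1 moved from 0.21 to 0.26 and from 0.18 to 0.23. That of Trhr, not called, moved from -0.08 to -0.03. Why the factors differ between the groups was not tested. Leaving out 1 library gave 1 to 2 calls in 82Q against WT (2 without WT-5), 4 to 6 in 82Q_M120A against WT and 2 to 3 in 82Q_M120A against 82Q. Of 68 results named for the related genes, 10 lost their call without some single library and 23 in the libraries with high Xist only. The 68 include Kiss1r and Sstr1 in 82Q against WT, which were not called. Among the related calls printed above, Npy and Trhde in 82Q against WT were each lost in 1 alternative. So were Pnoc, Oprk1 and Spx in 82Q_M120A against WT, and Vipr1 and Vipr2 in 82Q_M120A against 82Q. Gal, Npy5r and Sstr2, with 3 to 50 counts a library, allow no statement on small differences.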
